A study of Mus musculus with 9 samples.

Results

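Tau is the main microtubule-associated protein of axons, and the set described here holds tau itself (Mapt), the structural microtubule-associated proteins Map1a, Map1b, Map2 and Map4, the tau kinases Gsk3a, Gsk3b, Cdk5 and Mark2, and the Cdk5 activator Cdk5r1. The genes were chosen by name, and every array probe annotated to them was taken, under the current or an older symbol, without a filter on missing values. A probe was found for 9 of the 10 genes, 14 of the 29922 probes in all. No probe carried the symbol Gsk3a, so it is named only. Map1a, Map1b, Map2 and Map4 were annotated under the older symbols Mtap1a, Mtap1b, Mtap2 and Mtap4. Map2 had 3 probes, Map1b, Cdk5r1 and Mark2 had 2 each, and the other 5 genes had 1.

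As background, tau and its relatives bind along microtubules and stabilise them, with tau mostly in axons and Map2 mostly in dendrites. Kinases and phosphatases set how tightly they bind: phosphorylated tau detaches from microtubules, and in tauopathies such as Alzheimer disease it gathers in neurofibrillary tangles. Gsk3b and the pair of Cdk5 with its activator phosphorylate tau at proline-directed sites, while Mark2 phosphorylates the microtubule-binding repeats of tau, Map2 and Map4.

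Hippocampal RNA was compared on 9 arrays with 2 colours each, 3 arrays for each of 3 comparisons: WT mice at 12 over 3 months, 3xTG over WT mice at 3 months, and 3xTG over WT mice at 12 months. The mice were 8 females, 2 in each of 4 groups. 3xTG mice carry human APP and tau transgenes, given in the strain label as APPSwe and tauP201L, and the WT strain is labelled 129SV with C57BL6. RNA came from a single hippocampus per mouse and was linearly amplified. The human APP and tau transgenes of this line are known to be driven by a Thy1 cassette, active mainly in neurons. Mouse Mapt was left in place, and whether its probe also binds the human transgene's RNA was not tested. No group carried a treatment.

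Mice recurred across arrays. Each comparison's 3 arrays drew on 2 test and 2 control mice, and by the submitters' design text 6 of the 9 were biological and 3 technical replicates. A mean and SD below therefore runs over arrays, not mice. The WT mice of 3 months were the denominator of the first 2 comparisons. The WT mice of 12 months were the numerator of WT ageing and the denominator of the genotype comparison at 12 months, so a probe high or low in those mice moves these 2 comparisons in opposite directions, and their values are set side by side without a measure of likeness. Dyes were swapped unevenly, with Cy5 on the test RNA of 3 arrays and Cy3 on that of the other 6. By the numbers in the scan file names, all arrays of WT ageing fall in an early run, whereas each genotype comparison had array 1 in the early run and arrays 2 and 3 in a later one.

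Values are log2 ratios, read as test over control, minus the median of all probes listed on the array. Centring matters here: before it, array medians lay between -1.71 and 2.34. No deposited ratio lay between -0.5 and 0.5, so a probe with a small deposited ratio has no value. Centring moves this empty band by a different amount on each array. It ran from -2.835 to -1.835 on array 2 of WT ageing, and from 1.21 to 2.21 on array 3 of 3xTG over WT at 12 months. Values close to the array median can therefore be listed where larger ones are missing. The direction rests on the labels: read as Cy5 over Cy3 instead, the fitted ratio of Mapt in 3xTG over WT at 12 months would be -0.30 and that of Mark2 in WT ageing 1.00. Read as test over control, arrays of the same comparison correlated at 0.20 to 0.31 with opposite dyes and at 0.28 to 0.31 with the same dyes. Under the Cy5 over Cy3 reading the correlations between opposite dyes would be negative. Of the 126 possible values of the 14 probes, 60 were listed, 47.6% against 48.6% over all probes, and no member was listed on all 9 arrays. The ratios carry no expression levels, so neither the abundance of a transcript nor the tissue label could be checked from them. In bulk tissue, fewer cells of a type and less RNA per cell cannot be told apart.

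Promoter sequences are shown for Map4 and Mark2, which had the 2 member probes with the lowest mean log2 ratios in WT ageing. That of Map1b, which had the probe with the highest, is shown too. The other probes of Mark2 and Map1b, each listed there on array 1 only, were at -0.33 and -2.87. The sequences are from RefSeq on build GRCm38.p6 and run from 250 bases before the transcription start to 50 after it, 5′ to 3′ on the gene's strand. A promoter was found for 7 of the 10 genes. None was found for Mapt, Cdk5 and Cdk5r1, and those of Map1a, Map2, Gsk3a and Gsk3b are not shown. Capitals mark the GC box motif GGGCGG, the CAAT box motif CCAAT and the TATA box motif TATAAA on either strand, and a match on the opposite strand appears as its reverse complement.
Map4 promoter, chr9:109931524-109931823, plus strand: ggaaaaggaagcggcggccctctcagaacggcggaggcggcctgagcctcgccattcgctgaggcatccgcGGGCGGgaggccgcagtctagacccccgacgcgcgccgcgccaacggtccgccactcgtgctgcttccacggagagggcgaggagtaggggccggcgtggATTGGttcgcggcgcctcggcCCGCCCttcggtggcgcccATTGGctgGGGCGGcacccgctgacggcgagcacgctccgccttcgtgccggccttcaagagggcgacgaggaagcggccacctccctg
Mark2 promoter, chr19:7341811-7342110, minus strand: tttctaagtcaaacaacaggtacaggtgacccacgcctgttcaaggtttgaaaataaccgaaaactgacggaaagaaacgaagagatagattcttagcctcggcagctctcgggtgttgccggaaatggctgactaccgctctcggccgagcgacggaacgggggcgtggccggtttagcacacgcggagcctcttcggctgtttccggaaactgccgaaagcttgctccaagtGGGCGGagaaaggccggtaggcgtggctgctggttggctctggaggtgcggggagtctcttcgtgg
Map1b promoter, chr13:99516553-99516852, minus strand: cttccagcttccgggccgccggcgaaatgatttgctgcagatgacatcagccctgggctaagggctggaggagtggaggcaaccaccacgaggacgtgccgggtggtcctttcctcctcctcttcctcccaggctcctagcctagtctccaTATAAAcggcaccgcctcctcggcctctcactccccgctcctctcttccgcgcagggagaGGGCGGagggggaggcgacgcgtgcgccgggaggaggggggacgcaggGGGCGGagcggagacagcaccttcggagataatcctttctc
Map4 and Mark2 each have a second promoter in the table, not shown. The Map4 sequence has 73.3% GC and 42 CpG dinucleotides, the Mark2 sequence 57.3% and 25, and the Map1b sequence 65.7% and 23, against medians of 52.7% and 7 over 32851 promoters. GGGCGG occurs in all 3 sequences, CCAAT only in the Map4 sequence, with 2 matches on the opposite strand, and TATAAA only in the Map1b sequence, once. Over all promoters, 35.7% hold GGGCGG, 37.4% CCAAT and 13.6% TATAAA on either strand. A match describes letters in this window and is not a test of a factor.

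In WT ageing, probes of Mark2, Map4 and Mapt lay below the array median on all 3 arrays, and the Map1b probe mMC021636 lay well above it on both arrays that listed it. At 3 months, Mark2 and the Map2 probe mMC021833 lay lower in 3xTG than in WT hippocampus on all 3 arrays, relative to the array median. At 12 months, Mapt and Map4 lay higher in 3xTG than in WT hippocampus on all 3 arrays on that scale, and Cdk5 and Gsk3b did so on the 2 arrays that listed each. The differences of Mark2, Map4, Mapt and Map2 did not pass the test across all probes (limma, Benjamini-Hochberg adjusted p under 0.05), and no probe that could be tested did in any comparison. Map1b in WT ageing and Cdk5 and Gsk3b at 12 months could be fitted only without a dye term, and did not pass there. In simulated data the fit with a dye term called 0% of probes given a log2 change of 4, and at most 5% of those given 8. Not passing therefore says little about whether a transcript differed. At an unadjusted limma p under 0.05 there were 913 of 14537 probes in WT ageing (6.28%), 927 of 14200 at 3 months (6.53%) and 1110 of 14495 at 12 months (7.66%).

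**Figure D1:**
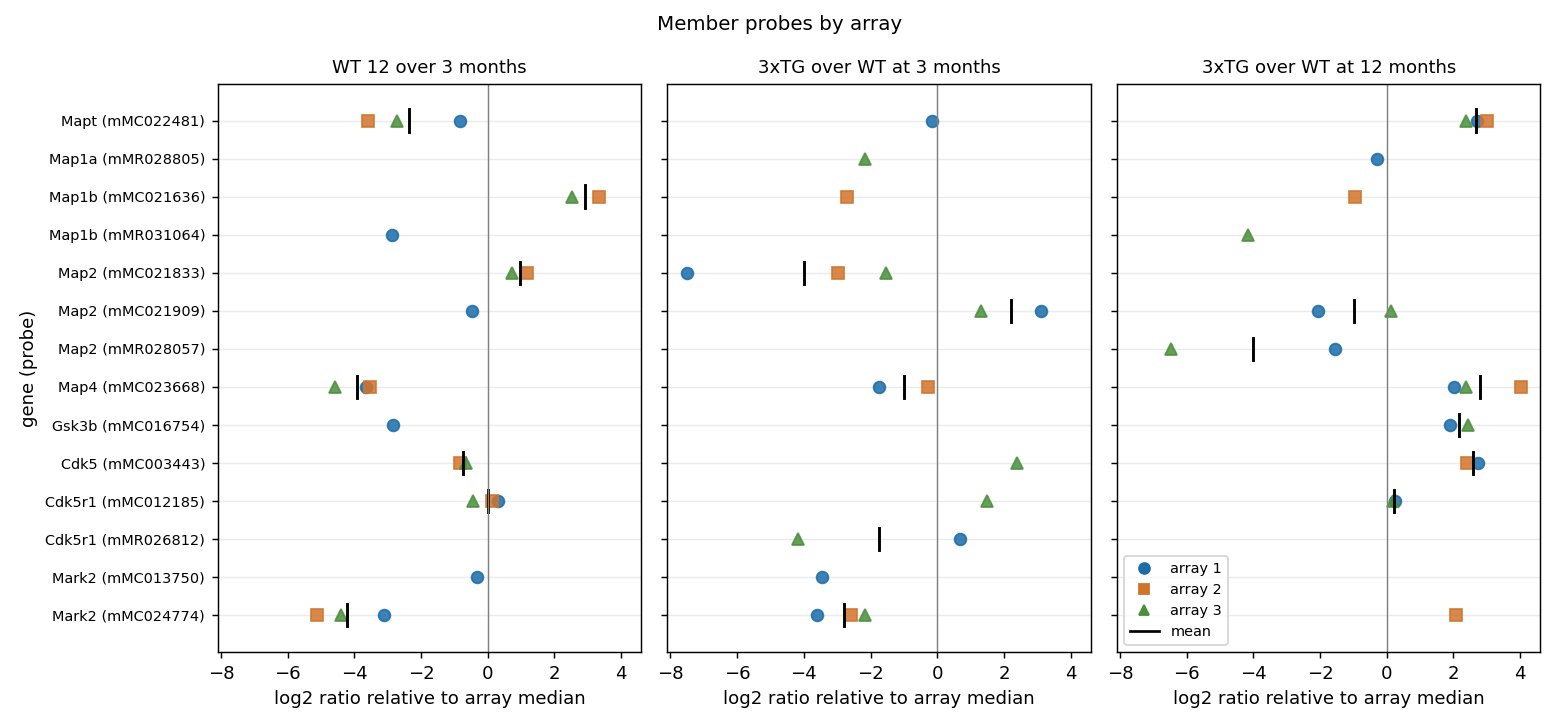
Each row is a probe of a member gene, and the x axis gives its log2 ratio relative to the array median in the 3 comparisons. Symbols are single arrays (circle array 1, square array 2, triangle array 3), black bars are means over the arrays that list the probe, and an array that does not list it has no symbol. At 12 months the Mapt, Map4, Gsk3b and Cdk5 values lie between 1.89 and 4.03, all above the array median.

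Tau was measured by a single probe, mMC022481, listed on 7 arrays. In 3xTG over WT hippocampus at 12 months its log2 ratio was 2.69, 2.99 and 2.38 on arrays 1 to 3, a mean of 2.69 ± 0.31 (SD, n = 3). The 3 values lay close together on this scale. Only array 3 had the test RNA in Cy5, and only array 1 fell in the early scan run. Arrays 1 and 2 shared a 3xTG mouse, and arrays 1 and 3 a WT mouse, so closeness says little about dye, run or mouse. As deposited, without centring, the Mapt values were 1.82, 2.12 and 0.67. Relative to 191 probes of abundant transcripts (ribosomal proteins and the like) instead of the array median they were 0.66, 0.90 and 1.18, so Mapt stayed positive on all 3 arrays under the 3 scales while its mean ran from 0.92 to 2.69. At 3 months the probe was listed on array 1 only, at -0.16. In WT ageing it was at -0.83, -3.58 and -2.71, a mean of -2.37 ± 1.41 (SD, n = 3), and the deposited values were 0.59, -1.25 and -0.75. Mapt was thus below the array median on every array of WT ageing, but array 1 was above 0 as deposited.

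The fit across all probes allows for the dye and for shared mice, so its estimates differ somewhat from plain means. For Mapt it gave a log2 ratio of 2.66 ± 1.08 (SE) in 3xTG over WT at 12 months (limma, adjusted p = 0.633) and -2.13 ± 1.08 (SE) in WT ageing (limma, adjusted p = 0.839). The Mapt difference of genotype effects, 12 minus 3 months, was 2.81 ± 2.04 (SE, limma, adjusted p = 0.988), with a single array behind the younger age.

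Among the structural proteins, Map4 is the most widely expressed relative of tau and is found in many non-neuronal cells. Its probe, mMC023668, was listed on 8 arrays, the most of any member. In WT ageing it was at -3.65, -3.52 and -4.58, a mean of -3.91 ± 0.58 (SD, n = 3). All 3 arrays were low, also as deposited, at -2.23, -1.18 and -2.63. The genotype comparison at 3 months gave -1.74 and -0.27 on arrays 1 and 2. That at 12 months gave 2.01, 4.03 and 2.37, a mean of 2.80 ± 1.08 (SD, n = 3). The 2 ages did not overlap: both younger arrays lay below the array median and all 3 older ones above it, as was the case for 6.98% of the 6807 probes listed on at least 2 arrays at each age. Ages that did not overlap, with 12 above 3 months, were found for 24.1% of those probes. As deposited, the older values were 1.14, 3.16 and 0.66, and relative to abundant transcripts they were -0.02, 1.94 and 1.17, so Map4 on array 1 lay just below 0 under that scale.

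For Map4 the fit gave -3.63 ± 1.03 (SE) in WT ageing (limma, adjusted p = 0.768). For 3xTG over WT it gave -0.96 at 3 months and 2.99 ± 1.03 (SE) at 12 months (limma, adjusted p = 0.633 for the older age). The older estimate was 1.95 with the scan run as a block (limma, adjusted p = 0.745). The difference between the ages, 3.95 ± 1.74 (SE), did not pass (limma, adjusted p = 0.988).

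Map2, the dendritic member, was read by 3 probes that did not move alike. Probe mMC021833 was at -7.52, -2.97 and -1.54 in 3xTG over WT at 3 months, a mean of -4.01 ± 3.12 (SD, n = 3). All 3 arrays were low, over a wide range. Probe mMC021909 was at 3.10 and 1.30 on arrays 1 and 3 of the same comparison, opposite in sign to the first probe on the same hybridisations. These probes lay far apart on array 1, but on array 3, at -1.54 and 1.30, they were closer together than the range within mMC021833. No statement about the Map2 gene as a whole can be drawn from them. In WT ageing mMC021833 was at 1.18 and 0.72 on arrays 2 and 3, and mMC021909 at -0.48 on array 1. At 12 months mMC021909 was at -2.07 and 0.13 on arrays 1 and 3, and the third probe, mMR028057, was at -1.54 and -6.47 on the same arrays. Of these 4 values, 3 lay below the array median. For mMC021909 the older values lay below the younger ones without overlap, as they did for 12.6% of the 6807 probes.

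For Map2 probe mMC021833 the fit gave -3.96 ± 1.53 (SE) in 3xTG over WT at 3 months (limma, adjusted p = 0.757). A single array weighed heavily here: without array 1 the Map2 estimate was -2.25 (limma, adjusted p = 0.753), and with the scan run as a block it was -6.80 (limma, adjusted p = 0.613).

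Map1b, which is most abundant in growing axons, also had probes that differed. In WT ageing mMC021636 was at 3.34 and 2.52 on arrays 2 and 3, the highest member values of that comparison, with deposited values of 5.67 and 4.47. Without a dye term the fit gave 2.93 ± 1.43 (SE) for this Map1b probe (limma, adjusted p = 0.905). The other probe, mMR031064, was at -2.87 on array 1, where the first was not listed. No array listed both Map1b probes, so they cannot be compared within a hybridisation. For 3xTG over WT, mMC021636 was at -2.71 on array 2 at 3 months and at -0.94 on array 2 at 12 months, and mMR031064 was at -4.16 on array 3 at 12 months. All listed Map1b values of the genotype comparisons lay below the array median, and none rests on more than a single array per probe and age.

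Map1a, the relative found in mature neurons, was listed least. Its probe mMR028805 was at -2.16 on array 3 at 3 months and at -0.30 on array 1 at 12 months, both in 3xTG over WT, and it was not listed in WT ageing. The 4 member probes whose IDs begin with mMR, for Map1a, Map1b, Map2 and Cdk5r1, were listed on 2 arrays each, against 2 to 8 arrays for the 10 whose IDs begin with mMC. Over the whole array the 2 kinds of ID were listed about equally, at 48.7% and 48.6%.

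**Figure D2:**
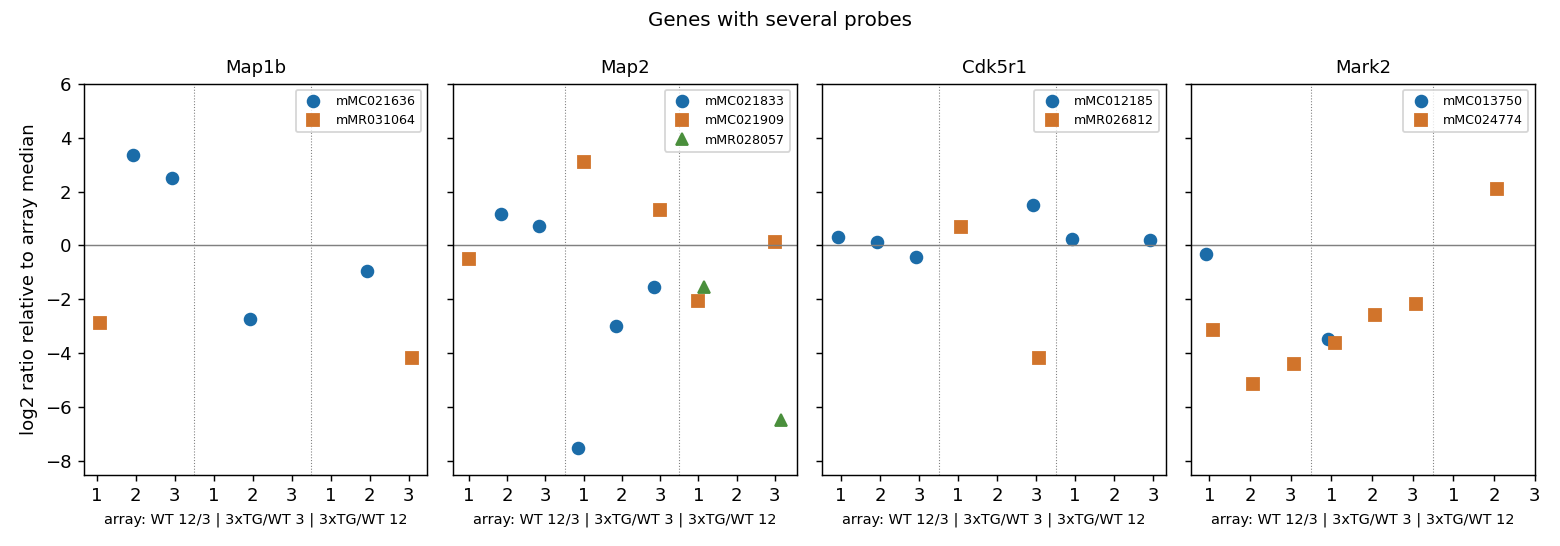
The 4 genes with several probes are shown, with the log2 ratio relative to the array median on the y axis and the 9 arrays on the x axis, in the order WT 12 over 3 months, 3xTG over WT at 3 months and 3xTG over WT at 12 months. Each symbol kind is a probe; the Map2 probes mMC021833 and mMC021909 lie on opposite sides of 0 at 3 months, at -7.52 against 3.10 on array 1.

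Of the kinases, Mark2 had the lowest values. Its probe mMC024774 was at -3.12, -5.13 and -4.40 in WT ageing, a mean of -4.22 ± 1.02 (SD, n = 3). At 3 months, 3xTG over WT, it was at -3.61, -2.59 and -2.17, a mean of -2.79 ± 0.74 (SD, n = 3). All 6 arrays were low and stayed so as deposited, at -1.71, -2.80 and -2.44 in WT ageing and at -2.77, -3.43 and -1.20 in the genotype comparison. These comparisons share the WT mice of 3 months as denominator. At 12 months the probe was listed on array 2 only, at 2.08, which was 1.21 as deposited and -0.01 relative to abundant transcripts. The second probe, mMC013750, was at -0.33 in WT ageing and at -3.47 in 3xTG over WT at 3 months, on array 1 of each. The Mark2 probes thus had close values on array 1 of the genotype comparison and unlike ones on array 1 of WT ageing.

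For Mark2 probe mMC024774 the fit gave -4.06 ± 0.99 (SE) in WT ageing (limma, adjusted p = 0.768). It gave -2.74 ± 0.99 (SE) in 3xTG over WT at 3 months (limma, adjusted p = 0.757). The Mark2 difference between the genotype effects at 12 and 3 months was 5.55 ± 1.67 (SE, limma, adjusted p = 0.988), and it rests on the single older array.

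Cdk5 probe mMC003443 was at 2.75 and 2.42 on arrays 1 and 2 of 3xTG over WT at 12 months, with deposited values of 1.88 and 1.55, and at 2.39 on array 3 at 3 months. All 3 listed genotype values of Cdk5 lay above the array median, and the 2 older ones were 0.72 and 0.33 relative to abundant transcripts. In WT ageing it was at -0.84 and -0.66 on arrays 2 and 3, where the deposited values were 1.5 and 1.3, so the sign of Cdk5 in WT ageing depends on centring. The fit with a dye term could not be made for Cdk5, since the arrays that listed it did not separate the dye from the comparison. Without a dye term Cdk5 did not pass in WT ageing (limma, adjusted p = 1.0) or at 12 months (limma, adjusted p = 0.794).

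Cdk5r1 encodes p35, the neuronal protein that switches Cdk5 on. Its probe mMC012185 was at 0.30, 0.14 and -0.44 in WT ageing and at 0.25 and 0.19 on arrays 1 and 3 of 3xTG over WT at 12 months. All 5 lay close to the array median, on both sides of it in WT ageing. As deposited they were 1.72, 2.47 and 1.52 in WT ageing and -0.62 and -1.52 at 12 months. At 3 months the probe was at 1.5 on array 3, and the other Cdk5r1 probe, mMR026812, was at 0.68 on array 1 and at -4.18 on that same array 3, so on array 3 the 2 probes disagreed in sign.

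Gsk3b, a kinase inhibited by Wnt and insulin signalling, was at 1.89 and 2.43 on arrays 1 and 3 of 3xTG over WT at 12 months. The deposited values of Gsk3b were 1.02 and 0.72, while relative to abundant transcripts array 1 was at -0.14 and array 3 at 1.24. In WT ageing it was at -2.83 on array 1, and at 3 months it was not listed. The fit with a dye term could not be made for Gsk3b either, and without that term its estimate at 12 months was 2.16 ± 1.41 (SE, limma, adjusted p = 0.817).

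**Figure D3:**
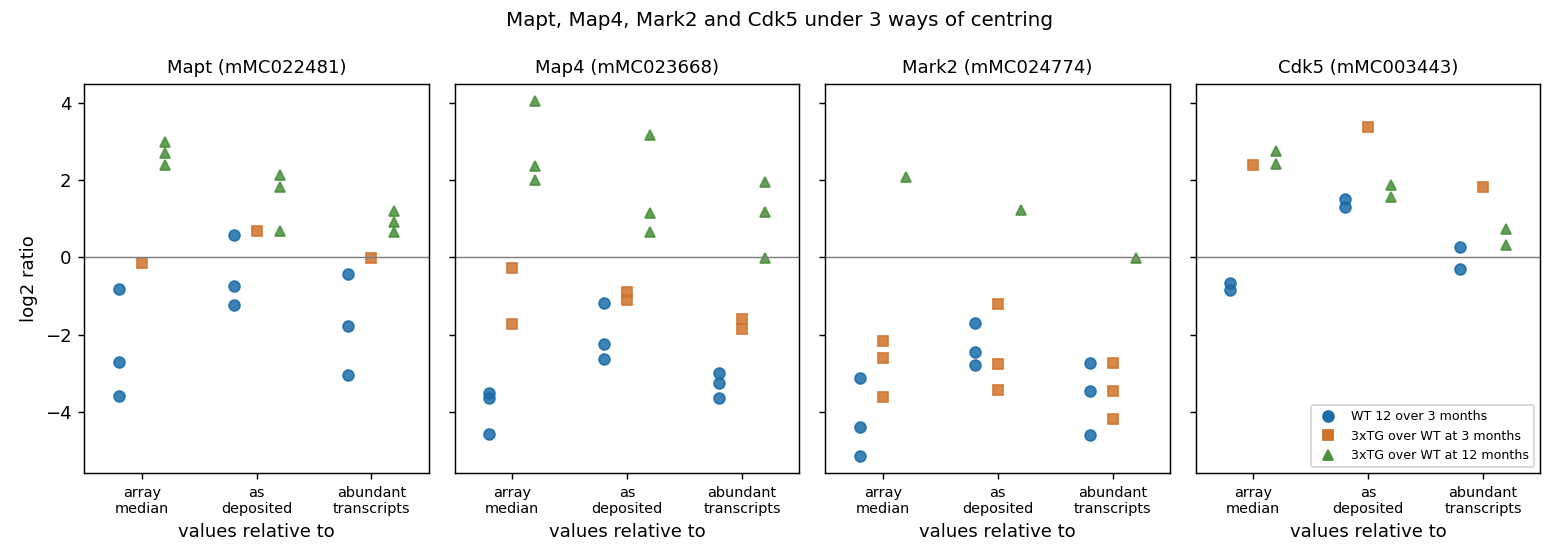
Log2 ratios of Mapt, Map4, Mark2 and Cdk5 are shown on the y axis under 3 scales: relative to the array median, as deposited, and relative to abundant transcripts. Each symbol is an array (circles WT 12 over 3 months, squares 3xTG over WT at 3 months, triangles 3xTG over WT at 12 months). Mapt at 12 months lies above 0 under the 3 scales, at 0.66 or more, whereas Cdk5 in WT ageing changes side.

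Counted over the members, 7 probes were listed on at least 2 arrays of WT ageing, and of these 2 lay above the array median on all listed arrays, 4 below and 1 on both sides. Over all probes listed on at least 2 arrays, 25.1% lay above and 26.1% below. As deposited, the same 7 members gave 4 above, 2 below and 1 mixed, against 67.3% above and 6.81% below over all probes, and relative to abundant transcripts 3 above, 3 below and 1 mixed, against 42.1% above and 15.2% below. At 3 months, 5 members were listed so, with 1 above, 3 below and 1 mixed in 3xTG over WT, against 28.7% above and 27.6% below over all probes. These member counts were the same under the 3 scales, where the shares of all probes were 32.2% above and 24.1% below as deposited, and 20.9% above and 36.8% below relative to abundant transcripts.

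At 12 months, 7 members were listed on at least 2 arrays, with 5 above, 1 below and 1 mixed in 3xTG over WT, against 29.9% above and 28.3% below over all probes. The 5 were Mapt, Map4, Gsk3b, Cdk5 and Cdk5r1. As deposited the split was 4 above and 3 below, against 18.2% and 47.1%. Relative to abundant transcripts it was 2 above, 3 below and 2 mixed, against 9.16% and 59.5%, and the 2 above were Mapt and Cdk5. How many members lie above 0 at 12 months thus depends on the scale, and a count over 7 probes is small.

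The fit could test 6 member probes in WT ageing, 6 at 3 months and 5 at 12 months, and called 0 of them after adjustment, against 0.0% of 14537, 14200 and 14495 probes. At an unadjusted limma p under 0.05, 2 members were below 0 in WT ageing (Mark2 and Map4), where 4.99% of all tested probes were. At 3 months 2 were below 0 in 3xTG over WT (Mark2 and Map2), against 2.72% of probes, and at 12 months 2 were above 0 (Map4 and Mapt), against 6.11% of probes. For the difference of the genotype effects between the ages, 0 of 6 members and 0.0% of 14656 probes were called, and at the unadjusted threshold Mark2 alone of the members was past it, above 0, against 2.3% of probes above 0 and 3.38% in either direction.

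The median over the 11 member probes listed in WT ageing was -0.75, against 0.05 over all probes. For 3xTG over WT it was -1.75 at 3 months, against -0.08, and 0.22 at 12 months, against 0.02, again over 11 probes each. The older median was 1.14 without array 1, 1.07 without array 3 and -0.04 without Mapt. As deposited, these member medians were 0.93, -1.0 and -1.07, against 1.97, 0.21 and -1.14 over all probes.

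Other genes of the pathway were read from 3 lists: other tau kinases (36 probes of 24 genes), tau phosphatases and their regulators (30 probes of 21 genes) and other microtubule-binding or microtubule-regulating proteins (55 probes of 36 genes). No tested probe of these lists was called in any comparison (limma, adjusted p under 0.05). At an unadjusted limma p under 0.05 in WT ageing, the kinases had 0 of 24 tested probes above and 4 below, the phosphatases 1 of 21 above and 2 below, and the microtubule list 0 of 34 above and 1 below, against 1.29% above and 4.99% below over all probes. For 3xTG over WT at 3 months the counts were 2 of 21 above and 2 below, 4 of 22 above and 0 below, and 2 of 37 above and 2 below, against 3.81% above and 2.72% below. At 12 months they were 2 of 22 above and 1 below, 7 of 22 above and 0 below, and 6 of 32 above and 0 below, against 6.11% above and 1.55% below.

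In WT ageing the list medians were -0.58 for the kinases, -0.94 for the phosphatases and -0.58 for the microtubule proteins, against 0.05 over all probes. As deposited these were 1.52, 1.28 and 1.42, against 1.97, and relative to abundant transcripts -0.06, -0.33 and 0.20, against 0.66, so their sign depended on the scale. For 3xTG over WT they were 0.55, 0.70 and -0.17 at 3 months, and -0.14, 0.01 and -1.27 relative to abundant transcripts, where all probes had -0.85. At 12 months they were 1.37, 1.87 and 0.97. As deposited the list medians at 12 months were 0.08, 0.91 and -0.68, against -1.14 over all probes, and relative to abundant transcripts they were -0.46, -0.13 and -0.26, against -1.75. The 3 list medians at 12 months thus lay above that of all probes, while their sign depended on the scale. This was not particular to these lists. The abundant transcripts had medians of 2.03, 2.09 and 1.20 relative to the array median on arrays 1 to 3 at 12 months. Their medians were -0.15, 1.59 and 0.57 at 3 months and -0.40, -0.53 and -0.93 in WT ageing. What these have in common with the lists was not tested. A change of scale shifts all values of an array by the same amount. The place of a list relative to all probes could therefore hardly change, and its recurrence under the 3 scales is no separate support.

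**Figure D4:**
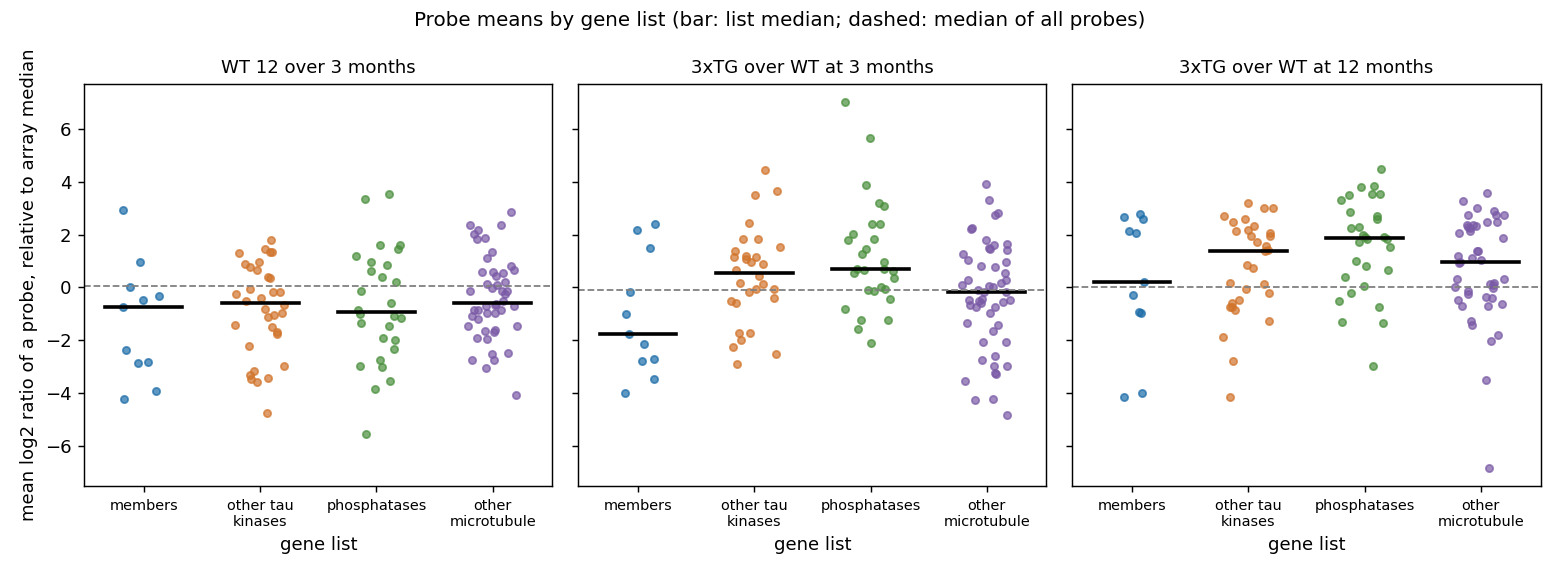
Each point is a probe, with its mean log2 ratio over the arrays of a comparison, relative to the array median, on the y axis, for the member genes and the 3 related lists. Bars are list medians and the dashed line is the median of all probes. At 12 months the medians are 0.22 for the members (1.14 without array 1 and 1.07 without array 3), 1.37 for other tau kinases, 1.87 for phosphatases and 0.97 for other microtubule proteins.

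The probes named next were chosen for lying on a single side of the array median on all 3 arrays of a comparison, and a gene's other probes often differed. Of 31 such probes, 20 had another listed probe of the gene, and for 14 of these at least 1 other probe had a mean of opposite sign. Values are therefore those of the named probe, not of the gene. Among the phosphatases, the single listed probe of Ppp2r1a, the scaffold subunit of protein phosphatase 2A, was at 5.12, 5.33 and 6.61 in 3xTG over WT at 3 months (limma, adjusted p = 0.757) and at 3.54, 3.55 and 3.46 at 12 months (limma, adjusted p = 0.633). All 6 arrays were high, also as deposited, where the lowest was 1.75. A probe of Ppp1cb, a catalytic subunit of protein phosphatase 1, averaged 3.81 ± 0.12 (SD, n = 3) at 12 months and its other probe 1.92. For Ppp3ca, the catalytic subunit of calcineurin, the means there were 2.71 ± 0.32 and 2.28. Other probes disagreed: for Ppp1cc, another catalytic subunit of protein phosphatase 1, means at 12 months were 3.84 ± 0.45 and -0.22. For Anp32a, an inhibitor of protein phosphatase 2A, they were -2.12 ± 0.42, 3.19 and 1.26 at 3 months.

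Among the other kinases, the 2 probes of Csnk1e, a casein kinase, averaged 3.20 ± 0.71 (SD, n = 3) and 1.95 in 3xTG over WT at 12 months. In WT ageing, where the same WT mice of 12 months are the numerator, they averaged -3.16 ± 0.97 and 0.78. WT ageing and 3xTG over WT at 3 months share the WT mice of 3 months as denominator. A probe of the calcium-dependent kinase Camk2b averaged -3.31 ± 1.17 (SD, n = 3) and -2.51 ± 1.64 in these comparisons. Its other probe was at 0.98 and 1.84 there, opposite in sign. The single listed probe of its partner subunit Camk2a averaged -2.91 ± 1.04 at 3 months, and that of the tau-tubulin kinase Ttbk1 -1.99 ± 1.45. Of its relative Ttbk2, a probe averaged 3.51 ± 2.53 there and the other 2 were at -0.17 and -0.41. For the stress kinases at 12 months, the single listed probes of Mapk8 and Mapk9 averaged 2.60 ± 0.58 and 2.15 ± 0.15 (SD, n = 3 each), while the 2 probes of Mapk10 were at 2.47 ± 0.16 and -0.86.

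Among the other microtubule proteins, the single listed probes of Map1lc3a and Map1lc3b, the light chain relatives that mark autophagosomes, averaged -2.75 ± 1.62 and -1.97 ± 0.57 in WT ageing (SD, n = 3 each). Means of Dclk1, a kinase with a doublecortin domain, were -4.10 ± 2.33 and 0.44 there, and those of Tacc1 1.36 ± 1.17, 2.37 and -0.25. At 3 months the single listed probe of Stmn2, a tubulin-sequestering protein of neurons, averaged 2.82 ± 1.30 in 3xTG over WT. Probes of the other genes named at that age disagreed in sign: -2.98 ± 1.72 and 0.27 for Clasp2, 1.42 ± 0.33 and -0.46 for Mapre2, and -2.60 ± 1.47, 0.17, 1.64 and 0.27 for Dcx, the marker of young neurons. At 12 months the single listed probes of Tppp and Map7d2 averaged 3.59 ± 0.36 and 3.27 ± 0.75, and the 2 of Clip1 were at 2.76 ± 1.29 and 0.97. The 4 probes of Dpysl2, which carries tubulin to growing axons, ranged from -3.51 to 3.01.

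The probes closest to Mapt and Map4 over the arrays were found by the mean absolute difference in log2 ratio, relative to the array median. For Mapt, over at least 6 shared arrays, they were those of Pbrm1 (0.36), Actr10 (0.39) and Cdkn2aipnl (0.43), against a median of 2.3 over 1544 probes. For Map4, over at least 7 shared arrays, they were those of Msantd3 (0.27), Ccnd3 (0.50) and Chka (0.51), against a median of 2.75 over 1016 probes. The arrays share mice and a centring step, and the probes were chosen for being close, so these are descriptions.

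Marker genes of cell types had medians away from 0 as well, and their part in the member values was not tested. Neuronal markers had medians of -1.0 in WT ageing, and of -0.19 at 3 months and 1.51 at 12 months in 3xTG over WT, over 12 or 13 listed probes of 11 genes. The neuronal medians by array were 0.47, -3.43 and 0.10 in WT ageing, and 0.18, 1.34 and 1.95 at 3 months. Neuronal probe means split into 6 above 0 and 7 below in WT ageing, and into 6 above and 6 below at 3 months. Markers of pyramidal cells stood at -0.68, 1.45 and 2.29, of astrocytes at -0.13, 0.70 and 1.08, of oligodendrocytes at -1.05, 0.05 and 0.48, and of microglia at 0.32, 0.56 and 0.75. Those of granule cells stood at -0.80, -0.23 and -0.49, of choroid plexus at -1.34, 0.70 and 1.30, and of endothelial cells at -0.24, 0.21 and -0.41. At 12 months the medians of neurons, pyramidal cells, astrocytes, oligodendrocytes, microglia and choroid plexus lay above the array median. So did Mapt, Map4, Gsk3b and Cdk5, whereas the medians of granule and endothelial cells lay below it. By array, marker medians were -0.60, -1.87 and 1.00 for choroid plexus, -0.01, -0.06 and 0.92 for microglia, and 1.74, 1.62 and -0.16 for astrocytes. Those of neurons, pyramidal cells and oligodendrocytes lay above 0 on all 3 arrays, but oligodendrocyte probe means split into 5 above and 5 below. Choroid plexus probe means split into 3 above and 2 below, with Ttr at -3.57, -3.49 and -3.73. Relative to abundant transcripts the older median was -0.43 for neurons and 0.34 for pyramidal cells.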

How the data were processed

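Hippocampal RNA of 8 mice was measured on 9 arrays with 2 colours each. The values are the deposited log2 ratios of 29922 probes, named as such from their range. How the authors scanned, corrected, filtered and normalized the arrays is not given in the sources used here. Groups, dyes and mice came from the labels, and 0 columns were left unmapped. Members and gene lists were chosen with earlier results of these data known.

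The median of all listed values was subtracted from each array. Means and SDs run over arrays. A generalised least squares fit with limma 3.58.1 in R 4.3.3 had 1 coefficient per comparison, a dye term and a covariance for shared mice. The ratio of mouse to array variance was 1.02, estimated by restricted maximum likelihood on the 142 probes listed on all arrays. Moderated p-values from eBayes were adjusted by Benjamini-Hochberg over all estimable probes, at a threshold of 0.05. The script was tested on simulated data. With 2 mice in a group and some hybridised repeatedly, the p-values measure the spread between these arrays, in part technical. Signal over background was not used here, so precision is limited by how few arrays there are.

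Annotation gave 21020 probes a symbol and left 8902 without; among 16675 symbols, 2728 were updated through RefSeq synonyms (GRCm38.p6) and 42 kept. All member probes are named. In each related list, up to 4 genes of smallest p with one sign on all 3 arrays of a comparison are named. Alternatives covered centring, scale, the filter on missing values, gene means, covariance, dye term and reading, scan run, replicate number, and arrays left out. Part of the 3xTG strain label is not reported here.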

Additional observations from a re-analysis of the deposited data

Results flagged for a closer look

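Of the 2 member probes listed on at least 2 arrays at each age, Map4 mMC023668 had all its values on opposite sides of the array median at the 2 ages, as 6.98% of 6807 probes did in that direction. Every listed array of 3xTG over WT lay above the array median at 12 months, at 2.01, 4.03 and 2.37, and below it at 3 months, at -1.74 and -0.27. The fitted difference of the genotype effects, 12 minus 3 months, was 3.95 ± 1.74 (SE) on the log2 scale and did not pass the test (limma, adjusted p = 0.988). As deposited, the older arrays were at 1.14, 3.16 and 0.66 and the younger at -0.90 and -1.11, so the separation of the ages was also there without centring. Relative to abundant transcripts the values were -0.02, 1.94 and 1.17 for the older arrays and -1.59 and -1.86 for the younger. Over 18 alternatives the estimate kept its sign in 17 and ran from -3.66, under the reading as Cy5 over Cy3, to 4.68, with limma's adjusted p from 0.612 to 1.0.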

How the results depend on the processing

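The count of probes called stayed at 0 in every comparison under all 19 alternatives, and limma's smallest adjusted p stayed at or above 0.217 for WT ageing, 0.224 for genotype at 3 months, 0.242 for genotype at 12 months and 0.612 for the difference of the genotype effects. That count is no sign of stability, since the fit called hardly any probe in simulated data either, even at large changes. The member medians depended on the scale. Without centring they were 0.93 in WT ageing, -1.0 at 3 months and -1.07 at 12 months, against -0.75, -1.75 and 0.22 as reported. Centred on abundant transcripts they were -0.085 in WT ageing and -1.39 at 12 months. With probes listed on at least 2 of 3 arrays of each comparison, only Map4 remained, at -3.91, -1.01 and 2.80. With gene means the medians were -1.56 in WT ageing and 2.08 at 12 months. Read as Cy5 over Cy3 they were 1.34 at 3 months and -1.10 at 12 months. Leaving out each array in turn gave -0.84 to -0.66 in WT ageing, -2.16 to -1.75 at 3 months and 0.22 to 1.14 at 12 months, the last reported as 0.22. At 12 months, leaving out array 1 gave 1.14 and leaving out array 3 gave 1.07. Of 19 member values on at least 2 arrays, 2 changed sign without centring, 1 on abundant transcripts and 0 after scaling each array. More of them moved by over 1 SD: 12 without centring, 11 on abundant transcripts and 4 after scaling. Whether the experiment numbers in the titles pair the arrays could not be settled. Deviations from the comparison means correlated at -0.08 to 0.24 for same-numbered arrays (9 pairs) and at -0.18 to 0.15 for others (18 pairs). These ranges overlap, and such deviations, over 3 arrays that also differ in dye and share mice, cannot show or exclude a pairing. With the number as a replicate block 0 probes were called in each comparison, and the estimates were 3.08 for Mapt at 12 months, -4.26 for Map4 and -4.30 for Mark2 in WT ageing. Causes were not tested.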
